A study of Homo sapiens with 15 samples.

Results

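AP-1 is a dimer of basic leucine zipper proteins. JUN, JUNB and JUND can pair with each other or with a FOS protein (FOS, FOSB, FOSL1, FOSL2), whereas FOS proteins need a JUN partner to bind DNA. ATF3 is a related stress-induced factor that can pair with JUN proteins. FOS, FOSB and JUN are classical immediate early genes whose short-lived mRNAs answer growth factors and stress, and the JUN proteins are phosphorylated by the stress kinase JNK, a pathway known to be activated by DNA damage. These 8 genes, taken by their symbols from the 47634 gene identifiers counted, were followed in IGROV-CP20 cells, a human ovarian cancer line selected for cisplatin resistance, whose replicates all come from that single line.

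The data are 15 libraries of 3′ end sequencing (QuantSeq), 3 biological replicates for each of 5 conditions. Cells were left untreated, were given 50 µM cisplatin for 24 h, or were given the same cisplatin after 24 h with 10 µM Tranilast (an anti-allergic drug), Telmisartan (an angiotensin receptor blocker) or Amphotericin B (a polyene antifungal). Every drug group therefore also received cisplatin and was in treatment for longer than the group with cisplatin alone, and no group with a drug alone was among those analysed. Libraries held between 1510620 and 3517041 counts, so that 3 counts correspond to between 0.853 and 1.99 CPM (a library's counts scaled to a common total) before TMM scaling, which evens out differences in composition. Levels are CPM after that scaling, which moves the level of 3 counts in each library. Because QuantSeq gives about 1 read per transcript near its 3′ end, levels were not divided by length, and values of different genes set side by side are shares of 3′ end reads. Differences were tested with edgeR's quasi-likelihood test over all 11113 genes that passed a filter on low counts, with p adjusted by Benjamini and Hochberg and a threshold of 0.05. These p-values weigh a difference against the spread between replicates, estimated for each gene over all 5 conditions together. In such bulk samples fewer cells with a transcript cannot be told apart from less of it per cell. The epithelial genes EPCAM, KRT8, KRT18 and CDH1 had counts in all 15 libraries, whereas the ovarian carcinoma genes PAX8, MUC16, WT1 and MSLN were at 0 in most libraries, with at most 4 counts, so these defining markers of the labelled tissue were absent or nearly so. Of the leukocyte genes, CD3E was at 0, PTPRC was detected in all libraries (2.45 to 75.4 CPM), and LYZ and CD68 in 13 and 12 (at most 8 and 6 counts). The endothelial genes VWF and CDH5 were at 0. Of the fibroblast genes, ACTA2 was detected in all libraries (6.88 to 45.5 CPM), and PDGFRB, DCN and LUM had at most 4 counts. Of the hepatocyte genes, ALB was detected in all libraries (0.226 to 9.70 CPM), and APOA1 and TTR had at most 6 counts.

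A pair of libraries stood apart from the others of their condition. Gene counts of cisplatin replicate 1 differed from those of the other cisplatin libraries by a chi-square of 26.4 and 43.1 for each degree of freedom, against 8.07 between the latter. For Telmisartan replicate 3 the values were 37.8 and 44.1, against 3.43 between the other Telmisartan libraries. The share of counts on mitochondrial rRNA also varied. It was 1.79% to 2.20% in untreated cells and 2.10% to 2.53% with Tranilast, against 12.3% to 14.8% with Amphotericin B. It was 13.7%, 5.61% and 3.41% in cisplatin replicates 1, 2 and 3, and 10.8%, 12.9% and 3.61% in Telmisartan replicates 1, 2 and 3. The part of these libraries and of this share in the results was examined by leaving the libraries out and by fitting the share as a covariate. The share in untreated and Tranilast libraries did not overlap that in libraries with cisplatin alone, Telmisartan or Amphotericin B. In comparisons across these groups the covariate cannot fully separate the share from the treatment.

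RefSeq lists promoter windows for 7 of the 8 members. The 150 bases before the start are shown for JUN and FOSB, whose levels moved together below, for JUND, which moved the other way with Tranilast, and for FOS, which was highest with Amphotericin B. They are on GRCh38.p14, read 5′ to 3′ on the gene's strand, with capitals at matches to TGACGT on either strand (the core of the cyclic AMP response element), TGACATCA (a variant AP-1 site) or TATAAA.
JUN, chr1:58784048-58784197, minus strand: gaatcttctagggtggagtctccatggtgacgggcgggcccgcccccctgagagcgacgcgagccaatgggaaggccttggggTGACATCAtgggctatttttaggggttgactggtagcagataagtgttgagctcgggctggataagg
FOSB, chr19:45467846-45467995, plus strand: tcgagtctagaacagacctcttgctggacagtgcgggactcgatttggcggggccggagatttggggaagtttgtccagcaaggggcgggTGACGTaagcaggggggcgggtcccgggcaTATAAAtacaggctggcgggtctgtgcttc
FOS, chr14:75278678-75278827, plus strand: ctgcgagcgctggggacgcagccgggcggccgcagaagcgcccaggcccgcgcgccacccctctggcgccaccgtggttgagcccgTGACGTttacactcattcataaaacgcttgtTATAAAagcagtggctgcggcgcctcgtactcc
JUND, chr19:18281623-18281772, minus strand: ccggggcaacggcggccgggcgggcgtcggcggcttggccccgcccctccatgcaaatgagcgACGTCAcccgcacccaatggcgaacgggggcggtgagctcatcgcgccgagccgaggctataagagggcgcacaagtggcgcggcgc

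On GRCh38 (GENCODE 29) the members lie at chr1:58780788-58784327 (JUN, minus strand), chr19:12791496-12793315 (JUNB, plus), chr19:18279760-18281622 (JUND, minus), chr14:75278774-75282230 (FOS, plus), chr19:45467995-45475179 (FOSB, plus), chr2:28392448-28417312 (FOSL2, plus), chr11:65892049-65900573 (FOSL1, minus) and chr1:212565334-212620777 (ATF3, plus).

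Counted back from the start, JUN held TGACATCA at -67 to -60, FOSB held TGACGT at -60 to -55 and FOS at -64 to -59, and JUND held it on the other strand at -87 to -82. FOSL2 held TGACGT at -66 to -61. Over the same 150 bases, TGACGT was present in 5.39% and TGACATCA in 1.96% of the 35116 windows of all genes, and TATAAA, present in FOS, FOSB and JUNB, in 6.71%. The AP-1 site TGANTCA, in 7.71% of whole windows (250 bases before to 50 after the start), was among the members only in that of FOSL2, just after the start. The full cyclic AMP response element TGACGTCA, in 1.85% of whole windows, was among the members only in that of JUND. It lay at -200 to -193, outside the bases shown. The CArG box, in 1.29% of whole windows, was in none of the members' windows. Bases further than 250 before the start were not searched, so a CArG box there would have been missed. RefSeq and GENCODE place some starts differently, so that the windows of JUN and FOSL2 lie within the gene as GENCODE draws it, and that of FOS overlaps it. ATF3 held TGACATCA at -123 to -116 of 1 of its 2 starts. The TGACGT search was added after the sequences had been seen, and a match describes letters in a window, not a used site.

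Cisplatin raised the mRNA of most AP-1 members. FOSB rose most, followed by JUN, FOS and FOSL2, and JUNB rose less, while JUND and ATF3 did not pass the test. Of the 7 members tested, 5 were higher and 0 lower, where 21.1% of all tested genes were higher and 23.6% lower. The members' median log2 fold change was 1.66 against -0.015 over all genes tested. For 53.5% of all tested genes the libraries of these groups did not overlap.

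JUN, the founding member of the family, was at 94.7, 81.7 and 91.6 CPM in untreated cells and at 523.0, 523.4 and 307.4 CPM with cisplatin. All cisplatin libraries lay above all untreated ones, a 5.05-fold rise (log2 fold change 2.34, SE 0.30, adjusted p = 1.81e-05). The rise was smaller but still called with the mitochondrial rRNA share as a covariate (log2 1.53, adjusted p = 1.10e-05). JUNB, a weaker activator than JUN, was at 122.4, 103.3 and 120.9 CPM without and at 234.6, 180.5 and 190.2 CPM with cisplatin, again without overlap, and rose 1.75-fold (log2 0.80, SE 0.20, adjusted p = 0.00347). JUNB was not called with scaling by library size only (log2 0.43, adjusted p = 0.0894) or with the mitochondrial rRNA share as a covariate (log2 0.46, adjusted p = 0.0725).

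JUND, the member known for steady expression in resting cells, was at 164.5, 173.8 and 183.8 CPM in untreated cells and at 106.4, 128.5 and 167.2 CPM with cisplatin. The groups overlapped, and the difference of -0.37 (95% interval -0.76 to 0.013, adjusted p = 0.107) did not pass the test. Without cisplatin replicate 3 JUND was lower (log2 -0.57, adjusted p = 0.0269). The make-up of the JUN reads differed between these conditions. JUND gave 46.0% ± 2.69 (SD, n = 3) of the reads of the 3 JUN genes in untreated cells and 17.6% ± 6.69 with cisplatin, whereas JUN went from 23.6% ± 1.09 to 56.5% ± 9.01. No library of either share overlapped between these conditions. Each share depends on the levels of all 3 genes, so the lower share of JUND is not a separate measure of its level.

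**Figure D1:**
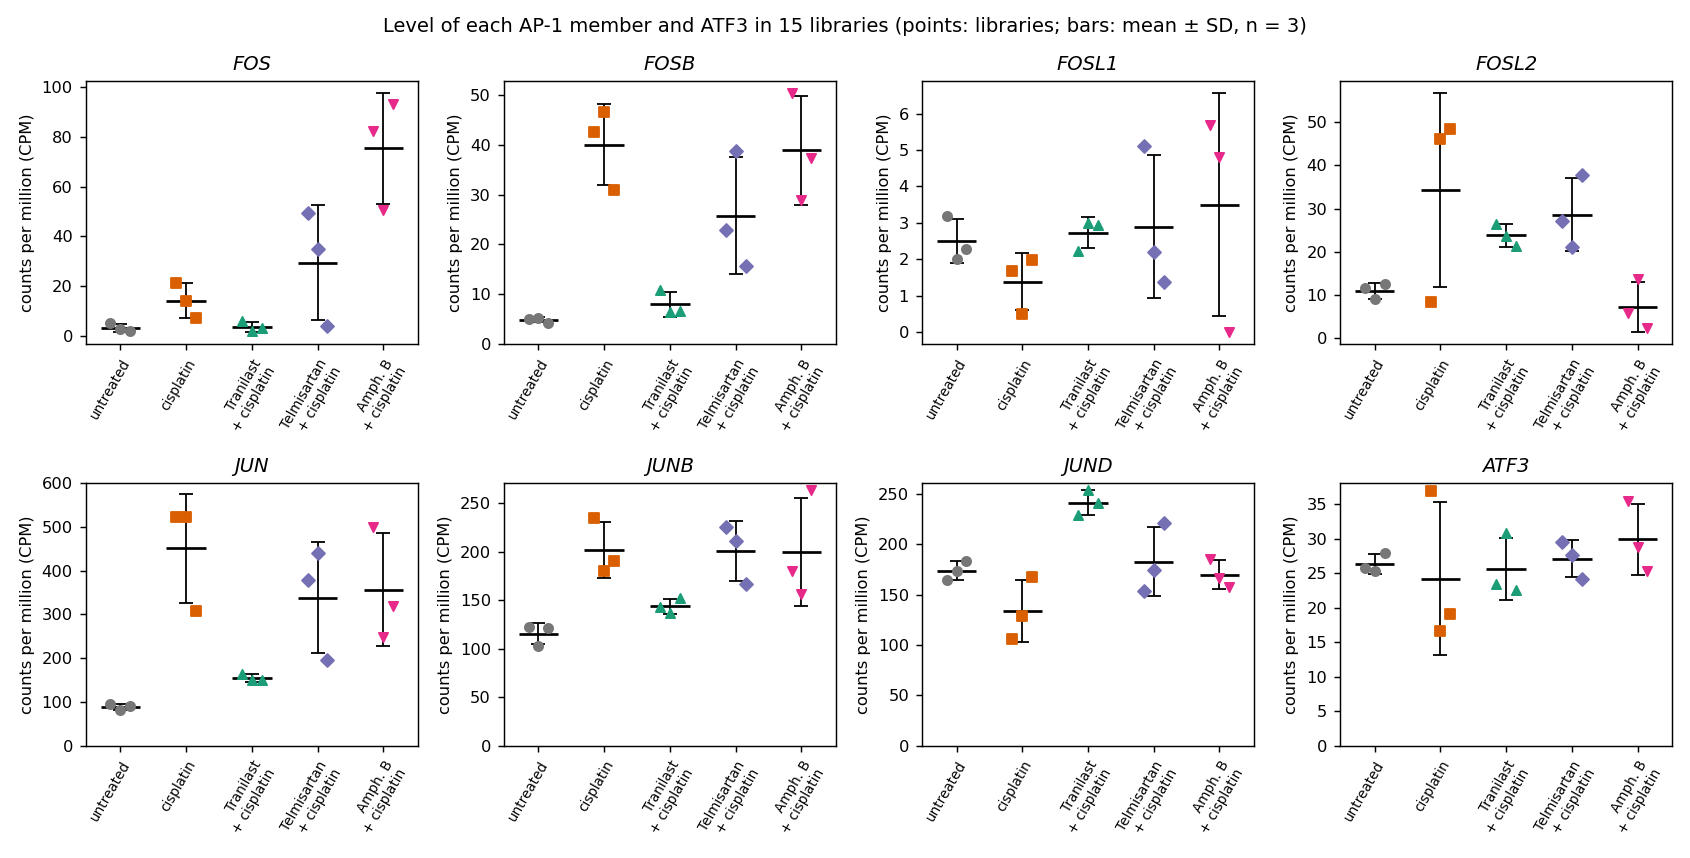
Level of each of the 8 members in CPM (vertical axis, linear, its range set per gene) in the 5 conditions; points are libraries, horizontal lines the mean and vertical bars the SD of 3 libraries. JUN and FOSB were high with cisplatin alone and low with Tranilast and cisplatin (mean 451.3 against 154.8 CPM and 40.0 against 7.96 CPM), and FOS was highest with Amphotericin B and cisplatin (75.4 CPM).

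Among the FOS genes, FOSB, which encodes a FOS protein and its shorter isoform, was at 5.10, 5.18 and 4.33 CPM in untreated cells and at 42.6, 46.6 and 31.0 CPM with cisplatin. This 8.15-fold rise (log2 3.03, SE 0.34, adjusted p = 8.02e-06) separated all libraries, and was 2.37 on the log2 scale (adjusted p = 5.49e-06) with the mitochondrial rRNA share as a covariate. FOSB lies within ERCC1 on the other strand, and whether counting used the strand is not given in the sources used here. ERCC1 itself did not pass the test (log2 fold change -0.37, adjusted p = 0.305), as HOOK2, which overlaps JUNB in the same way, did not in any of the 10 comparisons.

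FOS was low in untreated cells (5.10, 2.88 and 2.04 CPM, or 16, 10 and 8 counts) and reached 21.3, 14.2 and 7.15 CPM with cisplatin replicates 1, 2 and 3. All cisplatin libraries were higher, 4.20-fold on the fitted scale (log2 2.07, SE 0.70, adjusted p = 0.0235). The order of these cisplatin libraries is that of their mitochondrial rRNA share, and with that share as a covariate the fitted difference was -0.22 (adjusted p = 0.806). FOS also lost the call when untreated replicate 2 or 3, or cisplatin replicate 1 or 2, was left out (adjusted p = 0.0658, 0.0861, 0.0889 and 0.0620), and with limma-voom (0.0921), but kept it without both cisplatin replicate 1 and Telmisartan replicate 3 (log2 1.67, adjusted p = 0.00211).

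FOSL2, which encodes FRA2, was at 11.5, 8.92 and 12.5 CPM in untreated cells and at 8.40, 46.1 and 48.5 CPM with cisplatin. Cisplatin replicate 1, the library with 13.7% mitochondrial rRNA, was thus below every untreated library, and the other cisplatin libraries were above all of them. The rise was 3.16-fold over all libraries (log2 1.66, SE 0.46, adjusted p = 0.00725) and 2.09 on the log2 scale without cisplatin replicate 1 (adjusted p = 2.79e-05). The call was lost with scaling by library size only (log2 1.40, adjusted p = 0.0590), and the rise was larger with the mitochondrial rRNA share as a covariate (log2 2.68, adjusted p = 1.68e-06).

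FOSL1, which encodes FRA1, had between 0 and 13 counts in each library, did not pass the filter on low counts and was not tested. Its mean was 2.50 CPM in untreated cells, 1.39 with cisplatin, 2.72 with Tranilast, 2.90 with Telmisartan and 3.50 with Amphotericin B. All cisplatin libraries (0.491 to 1.99 CPM) were below all untreated ones (2.01 to 3.19 CPM), a difference of a few counts that was not tested.

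ATF3 was called in no comparison of conditions. It was at 25.8, 25.3 and 28.0 CPM in untreated cells and at 37.0, 16.7 and 19.1 CPM with cisplatin, where replicate 1 was above and the others were below all untreated libraries. Its mean stayed between 24.2 and 29.9 CPM over the 5 conditions, and none of the 10 comparisons passed the test (adjusted p between 0.439 and 0.954). For cisplatin against untreated cells the 95% interval of the log2 fold change ran from -0.69 to 0.41. Without cisplatin replicate 1 and Telmisartan replicate 3, ATF3 was lower with cisplatin (log2 fold change -0.56, adjusted p = 0.0364). Without cisplatin replicate 1 alone it was higher with Amphotericin B than with cisplatin (0.78, adjusted p = 0.0204).

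Tranilast before cisplatin left JUN and FOSB far below their level with cisplatin alone, and JUND above it. Against cisplatin alone 3 of 7 members were lower (JUN, FOSB and FOS) and 1 higher (JUND), where 11.6% of all tested genes were lower and 10.5% higher. The members' median log2 fold change was -0.55 against 0.023 over all genes. For 40.3% of all tested genes the libraries of these groups did not overlap. The comparisons of the 3 drug groups with cisplatin alone share the same 3 cisplatin libraries.

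JUN was at 164.1, 150.2 and 150.1 CPM with Tranilast, below every library with cisplatin alone, and fell by 1.54 on the log2 scale (SE 0.29, adjusted p = 0.00265). FOSB was at 10.8, 6.54 and 6.54 CPM and fell by 2.35 (SE 0.33, adjusted p = 0.00114), also without overlap. Both calls held in every alternative tried, with adjusted p up to 0.0199 for JUN and 0.0168 for FOSB. Both differences were smaller with the mitochondrial rRNA share as a covariate, -0.81 for JUN (adjusted p = 0.0143) and -1.76 for FOSB (adjusted p = 5.68e-04).

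JUND was at 228.9, 253.8 and 241.5 CPM with Tranilast, above every cisplatin library, a 1.80-fold rise (log2 0.85, SE 0.18, adjusted p = 0.00530). With the mitochondrial rRNA share as a covariate the log2 fold change was 0.47 (adjusted p = 0.0572). JUND gave 44.7% ± 2.11 of the JUN family's reads with Tranilast, close to the 46.0% of untreated cells, and JUN 28.7% ± 1.71. JUNB was at 142.5, 136.8 and 152.1 CPM with Tranilast, below all cisplatin libraries, but its difference of -0.49 (95% interval -0.90 to -0.076, adjusted p = 0.0800) did not pass. DESeq2 called it lower (-0.55, adjusted p = 0.0415).

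FOS was at 5.95, 1.91 and 3.16 CPM with Tranilast, below all libraries with cisplatin alone, and its log2 fold change of -1.97 (SE 0.70, adjusted p = 0.0498) only just passed. It lost the call without cisplatin replicate 1 or 2 or any single Tranilast library (adjusted p between 0.0522 and 0.163), with limma-voom (0.129), upper quartile factors (0.0551), library size only (0.0896) or a filter of CPM above 1 in 3 libraries (0.0524), and had a fitted difference of 0.13 with the mitochondrial rRNA share as a covariate (adjusted p = 0.910). FOSL2 was at 26.4, 23.7 and 21.2 CPM, between the low and the high cisplatin libraries, with a difference of -0.55 (adjusted p = 0.369). Without cisplatin replicate 1 it was lower with Tranilast (-0.98, adjusted p = 0.0221), as it was with the covariate (-1.47, adjusted p = 0.00367).

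**Figure D2:**
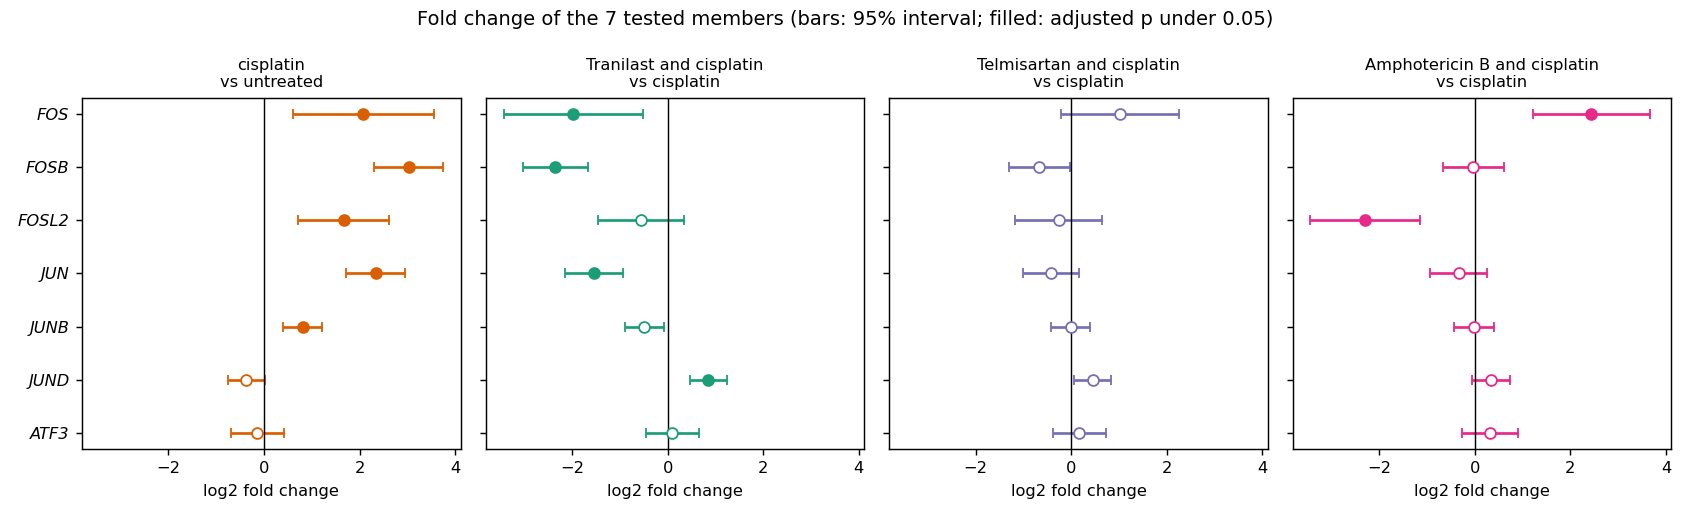
Log2 fold change (horizontal axis) of the 7 tested members in cisplatin against untreated cells and in each drug combination against cisplatin alone; points are edgeR estimates from 3 libraries a group, bars their 95% intervals, and filled points passed an adjusted p of 0.05. FOSB and JUN lie right of 0 with cisplatin (3.03 and 2.34) and left of 0 with Tranilast (-2.35 and -1.54), and no member is filled for Telmisartan.

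Against untreated cells, Tranilast with cisplatin gave no called member with edgeR's quasi-likelihood or likelihood ratio test or with limma-voom, and 1 with DESeq2. By the quasi-likelihood test 2.44% of all genes were called higher and 5.66% lower. An unadjusted p under 0.05 was found for 3 members (FOSL2, JUN and JUND) and for 2373 of all 11113 genes. For 46.2% of all tested genes the libraries of these groups did not overlap. JUN, with 154.8 ± 8.08 CPM against 89.3 ± 6.78 CPM (SD, n = 3), had every Tranilast library above every untreated one but a log2 fold change of 0.79 (95% interval 0.19 to 1.39, adjusted p = 0.0992) that did not pass. FOSB, at 7.96 ± 2.45 against 4.87 ± 0.471 CPM, also did not (0.68, adjusted p = 0.310). The interval of JUN, which is not adjusted for the number of genes tested, lay wholly above 0, and that of FOSB (-0.10 to 1.46) included 0. When only these 6 libraries were fitted, 4 members were called higher (FOSL2, JUN, JUNB and JUND), and 3 (FOSL2, JUN and JUND) with the mitochondrial rRNA share as a covariate or without cisplatin replicate 1 and Telmisartan replicate 3. With that covariate 1047 of all 11113 genes were called higher and 1529 lower, in place of 271 and 629. For the other fits the share of all genes is not given here. Replicates differed by a chi-square of 2.24 to 3.34 in untreated cells and 2.24 to 2.78 with Tranilast for each degree of freedom. The main fit takes its spread from all 5 conditions. The cause of the difference between these fits was not tested.

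Telmisartan changed no member detectably. Against cisplatin alone, edgeR called 0 members and 0% of all genes in either direction (0 higher, 0 lower). An unadjusted p under 0.05 was found for 2 members (FOSB and JUND) and for 1150 of all 11113 genes. DESeq2, limma-voom and edgeR's likelihood ratio test called 0 members. JUN was at 378.1, 440.8 and 196.5 CPM, and the library with 196.5 CPM was Telmisartan replicate 3. FOS was at 49.5, 34.8 and 4.13 CPM, with the lowest value again in replicate 3, whose mitochondrial rRNA share was 3.61% against 10.8% and 12.9%. Without cisplatin replicate 1 and Telmisartan replicate 3, FOS was higher (log2 2.01, adjusted p = 1.39e-04) and FOSL2 lower (-0.98, adjusted p = 0.0102) than with cisplatin alone. JUND alone was called, and higher, with the mitochondrial rRNA share as a covariate (0.54, adjusted p = 0.0329).

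Against untreated cells, Telmisartan with cisplatin had 5 members higher and 0 lower, where 12.8% of all genes were higher and 15.8% lower. They were FOS, FOSB, FOSL2, JUN and JUNB, with log2 fold changes of 3.09, 2.36, 1.40, 1.92 and 0.80. FOS overlapped the untreated libraries through replicate 3. It was not called with limma-voom (adjusted p = 0.0574) or with the mitochondrial rRNA share as a covariate (0.25, adjusted p = 0.800). JUNB was not called with library size only (0.51, adjusted p = 0.0637) or with the covariate (0.39, adjusted p = 0.198). With the covariate JUN was 0.91 (adjusted p = 0.0137), FOSB 1.54 (adjusted p = 0.00446) and FOSL2 2.71 (adjusted p = 1.60e-05), and JUND was called higher (0.58, adjusted p = 0.0227). FOSL2 was not called with library size only (1.20, adjusted p = 0.137), and it lost its call without any of the 3 untreated libraries or Telmisartan replicate 1 or 3 (adjusted p between 0.0581 and 0.102).

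With Amphotericin B, FOS had its highest level. It was at 82.5, 50.5 and 93.2 CPM, above every other library of the study, and 5.43-fold higher than with cisplatin alone (log2 2.44, SE 0.58, adjusted p = 0.0135). FOSL2 was lower, at 5.69, 13.6 and 2.24 CPM (8, 17 and 3 counts), a log2 fold change of -2.29 (SE 0.55, adjusted p = 0.0137), although cisplatin replicate 1 lay within these values. These were the only members called, 1 higher and 1 lower of 7, where 4.21% of all genes were higher and 9.01% lower. For 24.6% of all tested genes the libraries with Amphotericin B and with cisplatin alone did not overlap. FOS also reached 49.5 and 34.8 CPM in Telmisartan replicates 1 and 2. The direct test of FOS between Telmisartan and Amphotericin B did not pass (adjusted p = 0.168).

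FOSB (50.5, 28.9 and 37.3 CPM), JUN (499.9, 249.4 and 319.8 CPM) and JUNB (179.9, 156.4 and 263.1 CPM) overlapped the libraries with cisplatin alone. Their log2 differences were -0.033 (95% interval -0.67 to 0.61), -0.34 (-0.93 to 0.25) and -0.013 (-0.43 to 0.40). The make-up of the FOS family's reads differed accordingly. FOS gave 59.7% ± 9.55 of its reads with Amphotericin B against 16.7% ± 10.8 with cisplatin alone, and FOSL2 6.52% ± 6.52 against 36.3% ± 22.4, with no overlap between libraries for FOS.

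Both calls were lost without some single libraries. FOS was not called without cisplatin replicate 2 or 3 or Amphotericin B replicate 3 (adjusted p = 0.0710, 0.0617 and 0.0589), nor with the mitochondrial rRNA share as a covariate (log2 1.23, adjusted p = 0.0580). FOSL2 was not called without cisplatin replicate 2 or 3 or Amphotericin B replicate 1 or 3 (adjusted p between 0.0590 and 0.0794), with limma-voom (0.0638), in a fit of the 6 libraries (0.0737) or with that covariate (log2 -1.35, adjusted p = 0.0791). With the covariate 2 other members were called, JUN lower (-0.83, adjusted p = 0.0193) and JUND higher (0.65, adjusted p = 0.0166). Without cisplatin replicate 1, FOS was 2.89 (adjusted p = 0.00243) and FOSL2 -2.70 (adjusted p = 7.41e-05), and without Telmisartan replicate 3 as well, 2.85 (adjusted p = 4.87e-08) and -2.75 (adjusted p = 8.59e-08).

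Against untreated cells, Amphotericin B with cisplatin had 4 members higher and 0 lower (FOS, FOSB, JUN and JUNB), where 17.6% of all genes were higher and 23.3% lower. FOS was 22.8-fold higher (log2 4.51, SE 0.66, adjusted p = 9.97e-05). With the mitochondrial rRNA share as a covariate, which here nearly coincides with the groups, 1 of these calls remained, that of FOSB (1.91, adjusted p = 0.00780). FOS then had a log2 fold change of 1.004 (adjusted p = 0.398). JUNB was also not called with library size only (0.22, adjusted p = 0.341).

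**Figure D3:**
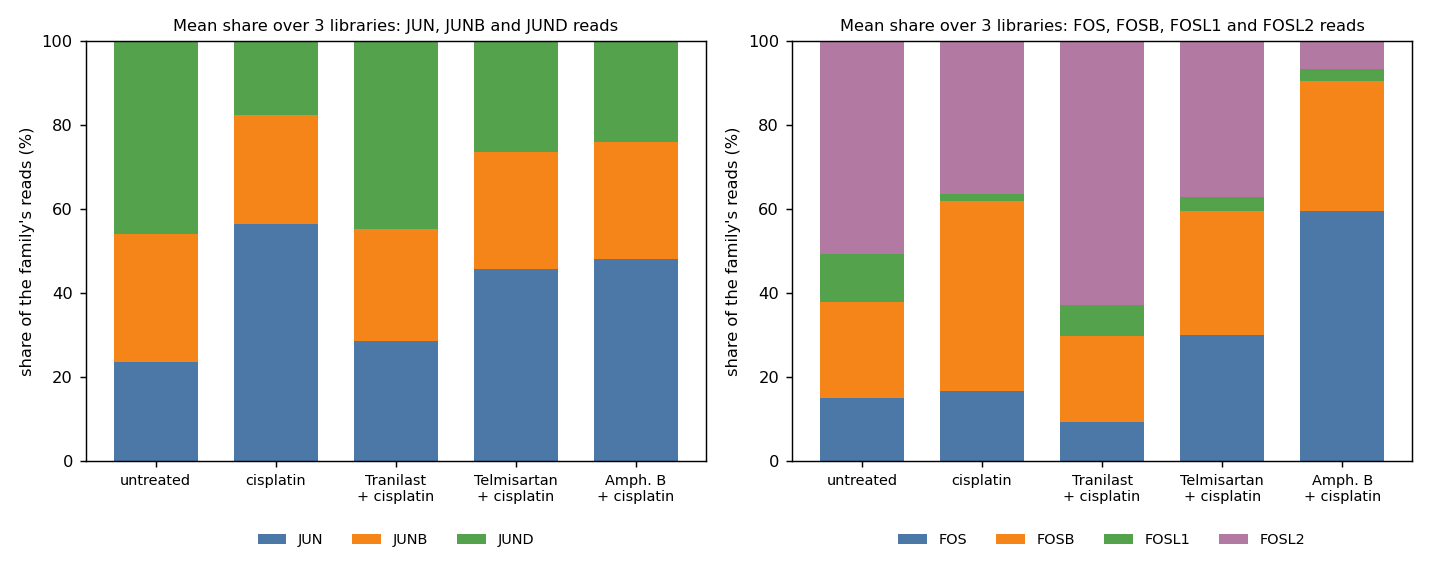
Mean share of reads, in % (vertical axis), that each gene gave of all reads on the JUN genes (left) and on the FOS genes (right) in the 5 conditions, averaged over 3 libraries. JUND gave 46.0% in untreated cells, 17.6% with cisplatin and 44.7% with Tranilast and cisplatin, and FOS gave 59.7% with Amphotericin B and cisplatin.

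The drugs were also compared directly. Tranilast against Telmisartan gave 0 members higher and 3 lower (FOS, FOSB and JUN), where 0.585% of all genes were higher and 1.75% lower. FOSB (log2 -1.68, adjusted p = 0.0412) and JUN (-1.13, adjusted p = 0.0466) were lower in every Tranilast library than in every Telmisartan library, and FOS (-2.99, adjusted p = 0.0412) overlapped. The count was 0 when any 1 of Telmisartan replicates 1 and 2 or of the Tranilast replicates was left out, and 5 without Telmisartan replicate 3, with JUNB lower and JUND higher. With the mitochondrial rRNA share as a covariate none of FOS, FOSB and JUN was called, and FOSL2 was lower (-1.50, adjusted p = 0.0343).

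Tranilast against Amphotericin B gave 3 members lower (FOS, FOSB and JUN) and 2 higher (FOSL2 and JUND), where 16.4% of all genes were lower and 19.7% higher. The libraries of these 5 members did not overlap, as was so for 55.2% of all tested genes. The largest difference was that of FOS (log2 -4.41, SE 0.65, adjusted p = 8.08e-04), followed by FOSB (-2.32), FOSL2 (1.74), JUN (-1.20) and JUND (0.50, adjusted p = 0.0409). FOSL2 lost its call without Amphotericin B replicate 1 or 3 (adjusted p = 0.0813 and 0.114), and JUND without any of the 6 libraries of this comparison (0.0562 to 0.142). FOSL2 was also not called with limma-voom (0.0503), JUN with library size only (-0.53, adjusted p = 0.0546) and JUND with DESeq2, RLE factors or upper quartile factors (0.0681, 0.101 and 0.0813). In the latter 3 settings JUNB was called lower (-0.60, -0.60 and -0.58, adjusted p = 0.0194, 0.0326 and 0.0400). With the mitochondrial rRNA share as a covariate, which here nearly coincides with the groups, 0 of the 5 were called.

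Telmisartan against Amphotericin B gave 0 called members and 0% of all genes with edgeR's quasi-likelihood test. The comparison gave 0 members with limma-voom, 1 with DESeq2 and 1 with edgeR's likelihood ratio test. An unadjusted p under 0.05 was found for 2 members, FOS and FOSL2, and for 2283 of all 11113 genes. FOS and FOSL2 were separated in all libraries, as were 22.4% of all tested genes. FOS had a log2 difference of -1.42 (95% interval -2.56 to -0.28, adjusted p = 0.168) and FOSL2 of 2.03 (0.87 to 3.19, adjusted p = 0.110). Without cisplatin replicate 1 and Telmisartan replicate 3, FOSL2 was higher with Telmisartan (1.77, adjusted p = 0.0152).

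Ordered by mean level, FOS ran from Amphotericin B (75.4 CPM) over Telmisartan (29.5), cisplatin alone (14.2) and Tranilast (3.67) to untreated cells (3.34), and of these neighbours cisplatin alone and Tranilast differed past the threshold. For JUN the order was cisplatin alone (451.3), Amphotericin B (356.4), Telmisartan (338.5), Tranilast (154.8) and untreated (89.3), with the step from Telmisartan to Tranilast past the threshold. FOSB had the same order and the same single step. No neighbours differed for FOSL2, JUNB, JUND or ATF3.

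Within the cisplatin, Telmisartan and Amphotericin B groups, the libraries with more mitochondrial rRNA had more FOS and less FOSL2 than the library with least. In the cisplatin libraries with 13.7%, 5.61% and 3.41% mitochondrial rRNA, FOSL2 was at 8.40, 46.1 and 48.5 CPM and FOS at 21.3, 14.2 and 7.15 CPM. In those with Telmisartan, at 10.8%, 12.9% and 3.61%, FOSL2 was at 27.0, 21.0 and 37.7 CPM and FOS at 49.5, 34.8 and 4.13 CPM. With Amphotericin B, at 13.6%, 12.3% and 14.8%, FOSL2 was at 5.69, 13.6 and 2.24 CPM and FOS at 82.5, 50.5 and 93.2 CPM. In untreated cells (1.79% to 2.20%) FOS was highest, at 5.10 CPM, in the library with least. With Tranilast (2.10% to 2.53%) FOS and FOSL2 were both highest in the library with most. The part of this share in the results was not tested beyond the fits with it as a covariate.

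**Figure D4:**
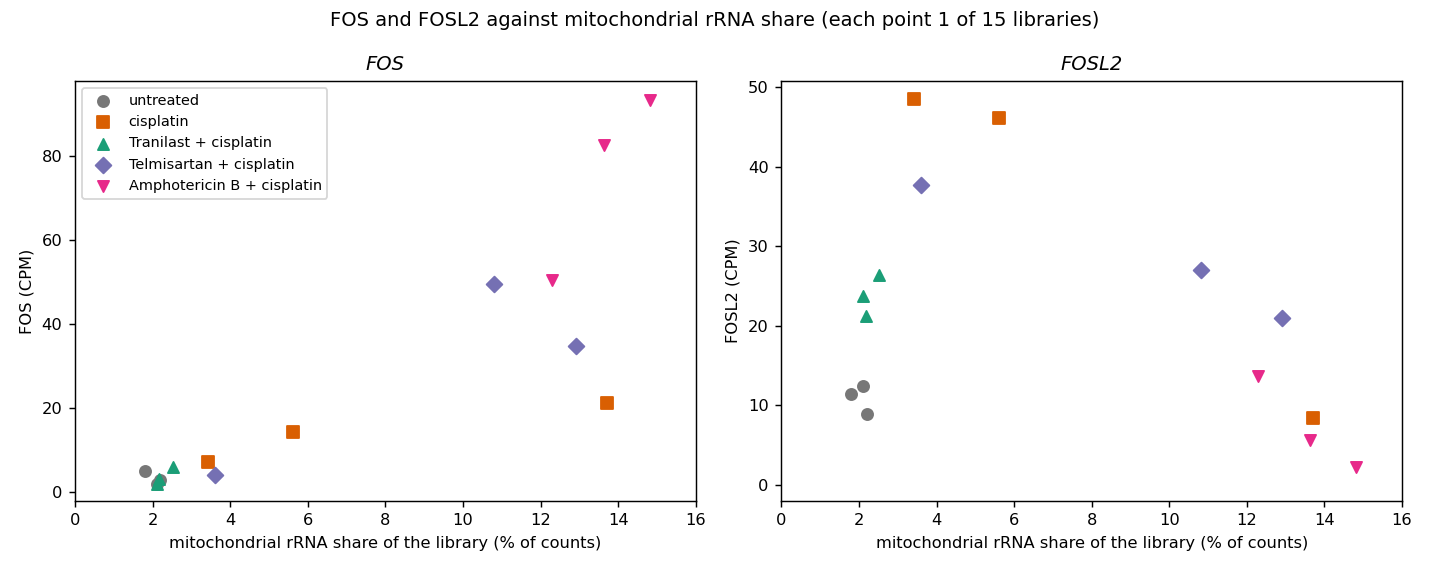
FOS (left) and FOSL2 (right) in CPM (vertical axes) against the share of each library's counts on mitochondrial rRNA in % (horizontal axes); each point is 1 of the 15 libraries, with colour and shape for the condition. The Amphotericin B libraries lie at 12.3% to 14.8% with FOS at 50.5 to 93.2 CPM, and untreated and Tranilast libraries lie at 1.79% to 2.53% with FOS under 6 CPM.

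For each member, the genes with the most similar pattern over the 15 libraries were sought by the root mean square difference of log2 CPM, each gene centred on its mean, among 8539 genes. For FOS they were the mitochondrial RNAs MT-TL1 (0.51) and MT-RNR1 (0.54), where the median gene differed by 1.88. For JUN they were HEXIM1 (0.22), an inhibitor of the elongation factor P-TEFb, and NXF1 (0.24), an mRNA export receptor, with a median of 1.03. For FOSB they were RGS16 and MYL6 (0.34 and 0.36, median 1.32), for FOSL2 FIGNL1 and CDR2L (0.40 and 0.44, median 1.13), for JUNB PABPN1 and RAN (0.14 and 0.16, median 0.58), for JUND QRSL1 and PICK1 (0.14 and 0.15, median 0.54), and for ATF3 HNRNPA1 and HNRNPUL1 (0.13 and 0.15, median 0.55).

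Other genes of the pathway were counted in lists. Over all 11113 tested genes 21.1% rose and 23.6% fell with cisplatin, and against cisplatin alone 10.5% were higher and 11.6% lower with Tranilast and 4.21% higher and 9.01% lower with Amphotericin B. Of the bZIP partners of AP-1, 8 of 14 were tested, and with cisplatin 3 rose and 2 fell. The small MAF proteins MAFG (31.3 ± 2.44 to 108.9 ± 31.0 CPM, log2 1.79, adjusted p = 2.60e-05) and MAFK (25.6 ± 0.56 to 58.0 ± 11.1 CPM, log2 1.18, adjusted p = 2.24e-04) were among those that rose. With Tranilast 2 were higher and 3 lower than with cisplatin alone, and with Amphotericin B 0 and 2. MAFG was lower with both (log2 -1.34 and -1.24).

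Of the JNK, p38 and ERK kinases, 13 of 15 were tested, and with cisplatin 3 rose and 5 fell, where 21.1% of all tested genes rose and 23.6% fell. Among those that fell were the p38 activator MAP2K6 (log2 -1.81, adjusted p = 1.06e-04) and JNK1 itself, MAPK8 (28.0 ± 2.04 to 10.8 ± 4.82 CPM, log2 -1.33, adjusted p = 0.00261). With Tranilast 1 was higher than with cisplatin alone, MAPK8 (26.4 ± 3.50 CPM, log2 1.25, adjusted p = 0.0106), and 0 were lower. With Amphotericin B 1 was higher, the ERK pathway kinase MAP2K2 (log2 0.85, adjusted p = 0.0169), and 1 lower. Of all genes 10.5% were higher and 11.6% lower with Tranilast, and 4.21% and 9.01% with Amphotericin B.

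All 12 factors that bind the FOS and JUN promoters were tested, and with cisplatin 1 rose and 5 fell, against 21.1% and 23.6% of all genes. SRF, the factor of the CArG box, rose from 96.3 ± 15.2 to 226.0 ± 80.2 CPM (log2 1.23, adjusted p = 3.29e-04), and MEF2C fell from 124.4 ± 4.45 to 25.5 ± 15.4 CPM (log2 -2.31, adjusted p = 1.24e-05). With Tranilast 4 were higher and 1 lower than with cisplatin alone, against 10.5% and 11.6% of all genes, MEF2C among the higher (log2 1.27, adjusted p = 0.00528). With Amphotericin B 0 were higher and 3 lower, against 4.21% and 9.01% of all genes. SRF was then at 52.7 ± 3.75 CPM (log2 -2.10, adjusted p = 3.06e-04), where FOS was at its highest level.

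Of 8 genes for the decay of AU-rich mRNAs, such as those of FOS and JUN, 7 were tested, and with cisplatin 2 rose and 0 fell, against 21.1% and 23.6% of all genes. They were ZFP36L2 (log2 1.55, adjusted p = 2.56e-04) and KHSRP (0.64, adjusted p = 0.0110), both of which promote decay. With Tranilast 0 were higher and 2 lower, against 10.5% and 11.6% of all genes, ZFP36L1 among the lower (-0.55, adjusted p = 0.0379). With Amphotericin B none was called by edgeR in either direction, against 4.21% of all genes higher and 9.01% lower. An unadjusted p under 0.05 was found for 5 of the 7 and for 3507 of all 11113 genes. Of 10 genes for the turnover and activity of AP-1 proteins, 9 were tested, and with cisplatin 2 rose and 4 fell, against the same shares of all genes. GSK3B, a kinase that marks JUN for degradation, fell from 52.9 ± 5.64 to 10.5 ± 3.85 CPM (log2 -2.34, adjusted p = 1.92e-05), and the coactivator NCOA1 fell by 2.62 (adjusted p = 5.72e-04). With Tranilast 3 were higher and 1 lower, GSK3B among the higher (34.2 ± 2.89 CPM, log2 1.71, adjusted p = 0.00203), and with Amphotericin B 1 was higher, the ubiquitin ligase COP1 (log2 1.25, adjusted p = 0.0383). The shares of all genes for these drugs were again 10.5% and 11.6%, and 4.21% and 9.01%.

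Of 22 textbook AP-1 targets, 13 were tested, and with cisplatin 3 rose and 4 fell, against 21.1% and 23.6% of all genes. Their median log2 fold change was -0.093, against -0.015 over all genes. The growth factor HBEGF rose from 2.29 ± 1.42 to 30.95 ± 13.6 CPM (log2 3.76, adjusted p = 6.97e-06), and the matrix protease MMP3 fell from 318.3 ± 20.6 to 66.2 ± 38.7 CPM (log2 -2.28, adjusted p = 2.63e-05). With Tranilast 0 were higher and 3 lower, against 10.5% and 11.6% of all genes, HBEGF among the lower (7.36 ± 1.68 CPM, log2 -2.06, adjusted p = 0.00192). With Amphotericin B 1 was higher and 1 lower, the cyclin CCND1 (157.2 ± 39.0 to 66.7 ± 9.13 CPM, log2 -1.24, adjusted p = 0.00356), against 4.21% and 9.01% of all genes.

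Of the inducers and partners of ATF3 in the stress response 10 were tested, and with cisplatin 0 rose and 8 fell, against 21.1% and 23.6% of all genes. Their median log2 fold change was -0.91, against -0.015 over all genes. DDIT3, which encodes CHOP, fell from 177.0 ± 8.54 to 51.5 ± 23.0 CPM (log2 -1.78, adjusted p = 8.01e-05), and the pseudokinase TRIB3 fell by 1.63 (adjusted p = 0.00126). With Tranilast 5 were higher and 0 lower than with cisplatin alone, against 10.5% and 11.6% of all genes, DDIT3 among them (150.1 ± 7.65 CPM, log2 1.54, adjusted p = 0.00198). With Amphotericin B 2 were higher and 0 lower, against 4.21% and 9.01% of all genes, including the phosphatase subunit PPP1R15A (log2 0.62, adjusted p = 0.0253). With Telmisartan, no gene of the 7 lists was called against cisplatin alone by edgeR. Between 0 and 3 in each list had an unadjusted p under 0.05, as did 1150 of all 11113 genes.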

How the data were processed

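RNA of 15 cultures was sequenced with QuantSeq 3′ mRNA libraries (100 ng of RNA, single reads of 75 bp). The authors deposited raw read counts for each Ensembl gene, in a table for each library. The submitters' processing notes name STAR 2.3.0, HTSeq and hg19. The annotation release and the use of strand are not given in the sources used here. Doses are those of the study's methods.

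Symbols and overlaps came from GENCODE 29 on GRCh38 (45776 of 47634 identifiers matched), and promoter sequences from RefSeq on GRCh38.p14. R 4.3.3 with edgeR 4.0.16 fitted all 15 libraries with a term per condition after filterByExpr (11113 genes) and TMM scaling, and glmQLFTest gave 10 comparisons with Benjamini-Hochberg adjustment at 0.05. Standard errors were derived from each log2 fold change and its F statistic. The procedure was tested on simulated data. Log2 CPM for likeness used a prior count of 2 and genes whose log2 CPM averaged 3 or more. Depth was 1510620 to 3517041 counts, and the level given for 3 counts covers counting error only. Printed 95% intervals of log2 fold changes come from the edgeR fit and rest on the spread between replicates, estimated over all conditions together.

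Alternatives were DESeq2 1.42.0, limma 3.58.1 (voom), the likelihood ratio test, other scalings, filters and thresholds, a fit of 6 libraries, a replicate block, the mitochondrial rRNA share as a covariate, and each library left out. Leaving out cisplatin replicate 1 and Telmisartan replicate 3 together was chosen after seeing the data. The members and lists were chosen with earlier results of these data known. Named are all members, the 2 list genes with the smallest adjusted p past the threshold for cisplatin against untreated cells and the 1 for each drug against cisplatin alone, and the 2 genes most like each member. No column was left out.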

Additional observations from a re-analysis of the deposited data

Results flagged for a closer look

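The effects of 2 drug combinations on a member, measured against the same cisplatin libraries, differed by the direct test between the drug groups in 8 cases. Tranilast differed from Telmisartan for FOS (log2 difference -2.99), FOSB (-1.68) and JUN (-1.13), all lower with Tranilast. By the quasi-likelihood test their adjusted p was 0.0412, 0.0412 and 0.0466. All 3 calls were lost with limma-voom, library size only, a fit of 6 libraries or the mitochondrial rRNA covariate. Tranilast differed from Amphotericin B for FOS (-4.41), FOSB (-2.32) and JUN (-1.20), lower with Tranilast, and for FOSL2 (1.74) and JUND (0.50), higher with Tranilast. None of these differences from Amphotericin B was called with that covariate. The direct test uses no library with cisplatin alone in its contrast, but its spread was estimated over all 5 conditions.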

How the results depend on the processing

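The 7 tested members in 10 comparisons give 70 values, and no value that changed sign passed the threshold under any alternative tried. FOSB and JUN kept their calls for cisplatin against untreated cells and for Tranilast against cisplatin in every alternative tried. Leaving out single libraries ended the call of FOS for cisplatin against untreated cells and for Tranilast and Amphotericin B against cisplatin, that of FOSL2 for Amphotericin B against cisplatin, Telmisartan against untreated cells and Tranilast against Amphotericin B, that of JUND for Tranilast against Amphotericin B, and those of FOS, FOSB and JUN for Tranilast against Telmisartan. Depth limits FOSL1 most (0 to 13 counts, not tested), followed by FOS and FOSL2, with counts down to 7 and 3 in a library. The cause of the changes below was not tested.

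The number of members called was 5 for cisplatin against untreated cells and 3 with scaling by library size only or with the mitochondrial rRNA share as a covariate. For Tranilast against untreated cells it was 0, and 1 with DESeq2 or library size only, 2 with no filter, 3 with that covariate or without cisplatin replicate 1 and Telmisartan replicate 3, and 4 in a fit of 6 libraries. For Telmisartan it was 0 against cisplatin, but 1 (JUND) with the covariate and 2 without those libraries, and 5 against untreated cells but 3 with library size only. For Amphotericin B it was 2 against cisplatin, but 1 with limma-voom or in a fit of 6 libraries and 0 at an adjusted p under 0.01, and 4 against untreated cells but 1 with the covariate. The covariate also gave 2 against cisplatin, but 0 of them were those called without it. For Tranilast against Telmisartan it was 3, but 0 with limma-voom, library size only, 6 libraries or an adjusted p under 0.01, 1 with the covariate (FOSL2, none of the 3) and 5 without those libraries. For Tranilast against Amphotericin B it was 5, but 0 with the covariate and 3 at 0.01. For Telmisartan against Amphotericin B it was 0, but 1 with the likelihood ratio test, DESeq2 or without those libraries, and 2 with no filter. With 1 library left out the counts ran from 0 to 3 for Amphotericin B against cisplatin, from 0 to 5 for Tranilast against Telmisartan and from 3 to 5 for Tranilast against Amphotericin B. The number of all genes called changed too. With the covariate 1047 were higher and 1529 lower for Tranilast against untreated cells, in place of 271 and 629. For Telmisartan against cisplatin they were 125 and 215, in place of 0 and 0. For Tranilast against Amphotericin B they were 29 and 2, in place of 2186 and 1817.

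Scaling by library size only moved the median log2 fold change of all genes from -0.015 to -0.36 for cisplatin against untreated cells, where 1019 genes were then called higher and 3351 lower in place of 2345 and 2622. For Tranilast against cisplatin it moved from 0.023 to 0.46, with 2582 higher and 397 lower in place of 1169 and 1293.

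The remaining values are log2 differences that changed sign. With the mitochondrial rRNA covariate they were FOS -0.22 and JUND 0.046 for cisplatin against untreated, FOS 0.13 for Tranilast and FOSL2 0.027 for Telmisartan against cisplatin, and, against untreated, FOS -0.097 for Tranilast, ATF3 -0.54 for Telmisartan, and FOSL2 1.33, JUND 0.70 and ATF3 -0.64 for Amphotericin B. Between drugs they were JUND -0.074 and ATF3 0.46 for Tranilast against Telmisartan, FOSL2 -0.12, JUN 0.020, JUNB 0.051, JUND -0.19 and ATF3 0.55 for Tranilast against Amphotericin B, and JUN 0.21, JUND -0.12 and ATF3 0.099 for Telmisartan against Amphotericin B. With library size only they were JUNB 0.085 for Telmisartan against cisplatin, ATF3 0.051 (Tranilast), JUND -0.15 and ATF3 -0.23 (Telmisartan) and ATF3 -0.38 (Amphotericin B) against untreated, FOSL2 0.0099 and ATF3 0.28 for Tranilast against Telmisartan, JUNB 0.19 and ATF3 0.43 for Tranilast against Amphotericin B, and JUN 0.16 and ATF3 0.15 for Telmisartan against Amphotericin B.

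Without cisplatin replicate 1 and Telmisartan replicate 3 they were JUNB 0.23 for Telmisartan against cisplatin, FOSB 0.017 and JUNB 0.10 for Amphotericin B against cisplatin, JUND -0.089 for Telmisartan against untreated, and JUN 0.20 and JUND -0.049 for Telmisartan against Amphotericin B. For Amphotericin B against cisplatin, FOSB was 0.065, 0.026 and 0.029 and JUNB 0.086, 0.051 and 0.050 with upper quartile factors, DESeq2 and RLE factors, and JUNB was 0.023 in a fit of 6 libraries. JUND for Amphotericin B against untreated was 0.10, 0.086, 0.086 and 0.15 in these 4 settings, and JUNB for Telmisartan against Amphotericin B -0.057, -0.059, -0.057 and -0.028. For Telmisartan against cisplatin, JUNB was 0.029 with upper quartile factors, 0.0079 with 6 libraries, 0.035 with no filter and 0.032 with the CPM filter, and FOSL2 was 0.034 with limma-voom. JUN for Telmisartan against Amphotericin B was 0.026 with no filter.

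With 1 library left out, ATF3 ran from -0.57 to 0.062 for cisplatin against untreated, -0.11 to 0.53 for Tranilast and -0.0093 to 0.62 for Telmisartan against cisplatin, -0.20 to 0.048 for Tranilast and -0.035 to 0.11 for Telmisartan against untreated, -0.23 to 0.016 for Tranilast against Telmisartan and -0.26 to 0.0046 for Telmisartan against Amphotericin B. JUNB ran from -0.096 to 0.15 for Telmisartan and -0.23 to 0.15 for Amphotericin B against cisplatin, and -0.13 to 0.25 for Telmisartan against Amphotericin B. JUND ran from -0.090 to 0.19 for Telmisartan and -0.11 to 0.047 for Amphotericin B against untreated, and -0.049 to 0.23 for Telmisartan against Amphotericin B. FOSL2 ran from -0.66 to 0.076 for Telmisartan and FOSB from -0.28 to 0.13 for Amphotericin B against cisplatin, FOS from -0.34 to 0.52 for Tranilast against untreated, and JUN from -0.31 to 0.25 for Telmisartan against Amphotericin B.

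Replicate numbers are shared between conditions, and the sample titles do not say whether they pair the libraries. In none of the 10 comparisons did all same-numbered libraries deviate together with a correlation over 0.1 (range -0.23 to 0.63). For Telmisartan against cisplatin the correlations were 0.31, -0.17 and 0.63 for replicates 1, 2 and 3. With 3 libraries a condition, these values cannot settle whether the libraries were paired. A replicate block left all 10 counts of members called as they were, and 1 of the 70 values changed sign, JUNB for Telmisartan against cisplatin (0.0012).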
